A study of Mus musculus with 10 samples.

Results

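The metalloproteinases of the ADAM, ADAMTS and MMP families and their TIMP inhibitors were examined in sorted mouse lung epithelial cells. Their 82 genes were taken by their symbols out of 22180 genes measured: 33 Adam genes, 18 Adamts genes, 5 Adamtsl genes, 22 Mmp genes and 4 Timp genes. RNA came from 10 samples labelled as type 2 alveolar epithelial cells (AEC2s), the surfactant-making cells of the alveolus, from mice of postnatal day 4 with a mixed background of C57BL/6, 129S6 and CD-1. Titles and ages give day 4, while a description common to all samples speaks of P3 and adult cells. The 5 SP-C+ samples came from SftpcCreERT2-R26REYFP mice, in which a Cre enzyme driven by the surfactant protein C gene switches on YFP, and were sorted for YFP after 24 h of lineage tracing. The 5 Axin2+ samples came from Axin2CreERT2-TdTom mice, in which Cre is driven by Axin2, a target gene of Wnt signalling, and were sorted as TdTomato+ and EpCAM+ cells without CD31 or CD45. The comparison is therefore between cells labelled through Axin2 and cells labelled through the surfactant protein C gene, both titled AEC2s. The gate stated for the Axin2+ samples names no AEC2 marker. Markers of other lung epithelial cells were higher in Axin2+ arrays, as given below. Whether the Axin2+ samples held AEC2s alone was not tested, so the differences cannot be read as those of an AEC2 subset. No lineage tracing time is given for the Axin2+ samples, and no other treatment is given for either group. The mouse line, reporter, gate and stated tracing differed with the group and cannot be told apart from it. No label says whether replicates were separate animals, so p-values measure the spread between these samples, which may be technical.

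ADAM proteins are anchored in the cell membrane and, where their protease domain works, cut the outer part off other membrane proteins, which releases growth factors and adhesion molecules. ADAMTS proteins are secreted and cut matrix proteins such as proteoglycans and procollagens, while the ADAMTS-like proteins share their matrix-binding repeats but have no protease domain. MMPs cut collagens, elastin, basement membrane and many other proteins, and TIMPs block MMPs and, for some of them, ADAMs and ADAMTSs. In the lung these enzymes are known for shaping the matrix while alveoli form, for shedding epithelial receptors and growth factors, and for destroying the alveolar wall in emphysema.

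In the Axin2+ arrays, 8 members were at least 2-fold higher: 6 protease genes, the inhibitor gene Timp2 and Adamtsl3, whose product has no protease domain. The protease genes were Mmp11, Adam28, Mmp23, Adam8, Adamts10 and Mmp14. Of the 82 members 16 were higher and 8 lower at an adjusted p under 0.05, which is 19.5% and 9.76% of them, against 8.61% and 8.95% of all genes tested (limma, Benjamini-Hochberg adjustment over all genes). The number of lower members depended on the setting: it was 15, beside 16 higher, with each array centred on its median (51.6% of calls higher in place of 66.7%), and 3 with SP-C+ replicates 4 and 5 alone. In either direction 24 members (29.3%) were called, against 17.6% of all genes. At least 2-fold higher members numbered 8, and 2.89% of all genes were called at that size. No member was at least 2-fold lower at the brightest probe set used for each gene, where 0.338% of all genes were, but a dimmer probe set of Adam19 was at -1.11. The median difference over the members was 0.00 on the log2 scale, against -0.04 over all genes. The groups did not overlap for 22 members (26.8%), against 15.0% of all genes. Lack of overlap fixes the exact permutation p at the smallest that 5 arrays against 5 allow, 0.00794 (two-sided), so that test adds nothing for these members.

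**Figure D1:**
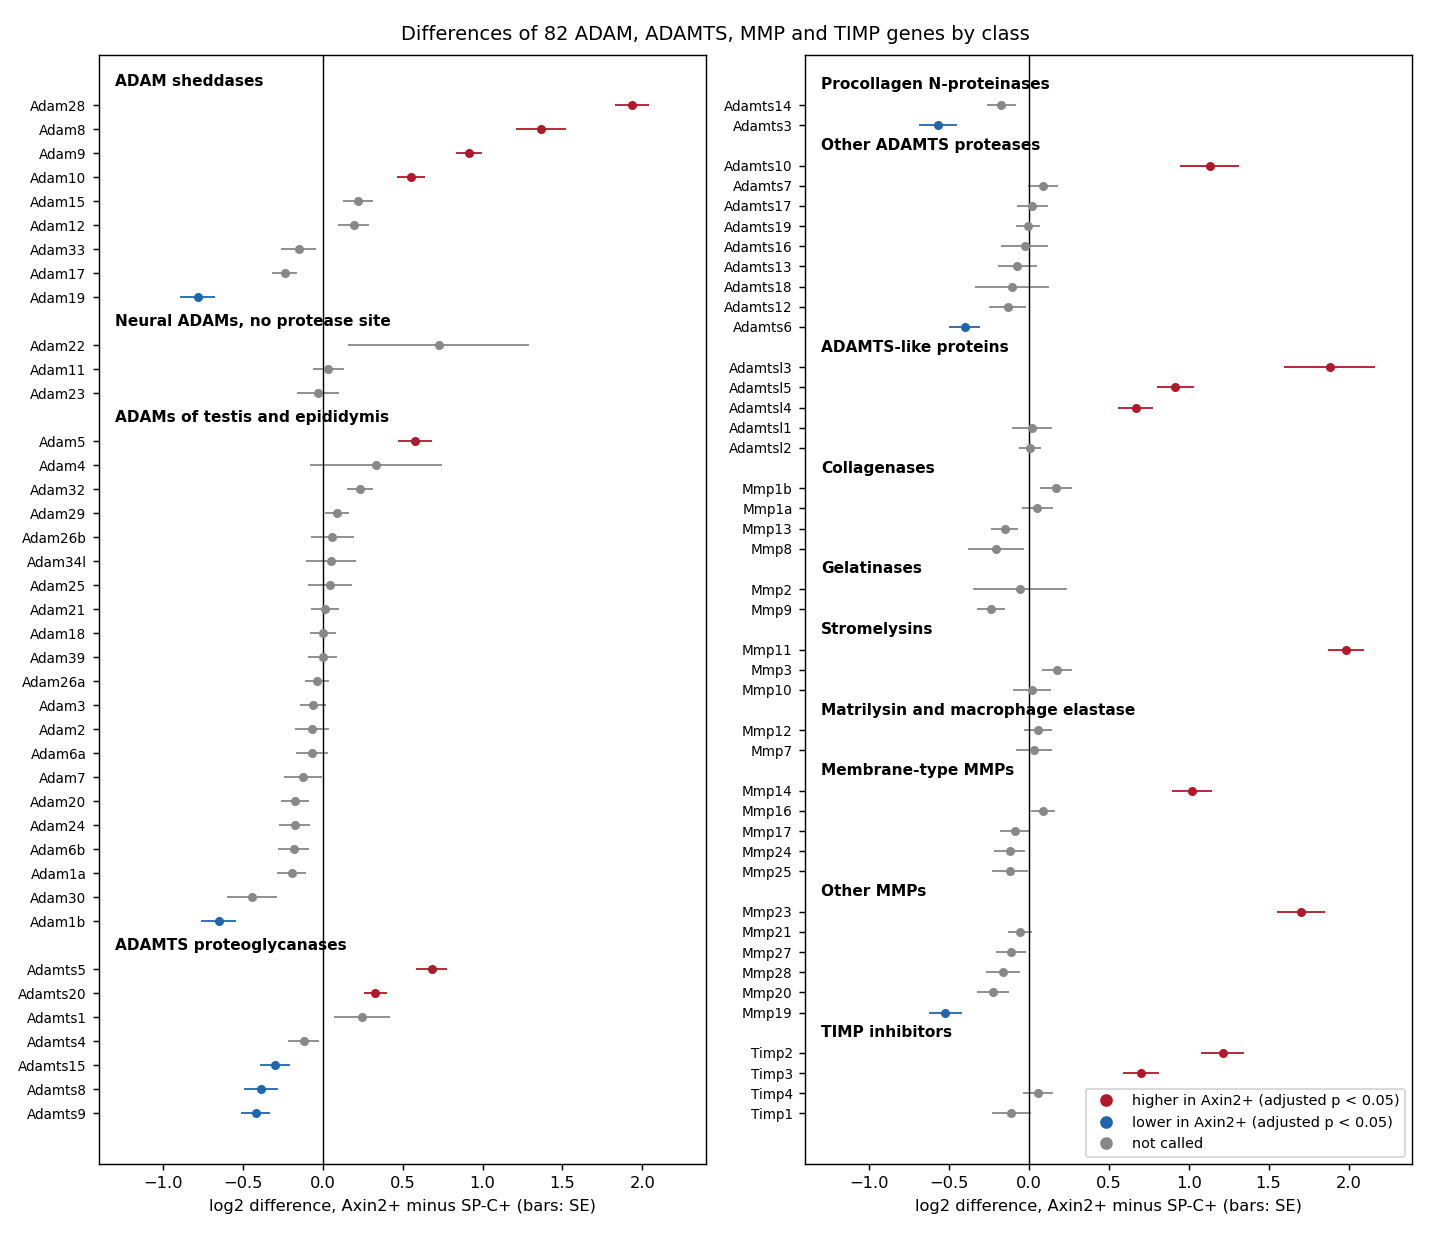
Log2 difference of each of the 82 genes, Axin2+ minus SP-C+ arrays, grouped by class, with bars for the standard error (n = 5 arrays per group) and colour for the call at an adjusted p under 0.05. The 8 largest rises lie between 1.02 and 1.98, the deepest fall is Adam19 at -0.78, and the testis ADAMs run from -0.65 to 0.58.

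Labels were checked against cell markers. All 11 AEC2 markers lay above the median gene in both groups and 2 of them (Sftpd and Cebpa) were lower in Axin2+ arrays. Markers of type 1 alveolar cells (12 of 12 higher, median difference 2.63), ciliated cells (9 of 11 higher and 1 lower, 2.86) and club cells (5 of 6 higher, 1.78) were higher in Axin2+ arrays. Averaged over the list, type 1 markers lay at 9.43 to 9.87 in SP-C+ arrays and 11.52 to 11.88 in Axin2+ arrays, ciliated markers 5.80 to 6.06 and 8.24 to 8.55, and club markers 8.60 to 9.08 and 10.26 to 10.65. A rise described here has the direction of these lists by definition, so that match adds nothing. The part of such cells in the rises was not tested. In bulk RNA, fewer cells of a type and less RNA per cell cannot be told apart. Fibroblast and smooth muscle markers, which mark a common source of MMPs and TIMPs, were not higher (0 of 12 higher and 1 lower, median -0.07, list averages 5.88 to 6.54 in SP-C+ and 5.97 to 6.18 in Axin2+ arrays). Endothelial markers (0 of 8 called) and leukocyte markers (0 of 12 higher, 2 lower) did not rise either. The mesothelial list had 1 of 4 higher, Msln, while Wt1, Upk3b and Lrrn4 were not called. SP-C+ replicate 1 stood apart in its endothelial list average, 7.46 against 6.23 to 6.81 in the other SP-C+ arrays. It also stood apart in its leukocyte average, 5.69 against 5.22 to 5.31. The same held for its fibroblast and smooth muscle average, 6.54 against 5.88 to 6.13. Array medians lay between 5.89 and 5.97 over all probe sets.

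Sequences before the transcript starts are shown for members that rose and for MMP genes of chromosome 9 that were not called, because their base composition and motif matches differed. RefSeq promoters (GRCm38.p6) matched 51 of the 82 members with 56 windows of 250 bases before a start. They covered 11 of the 16 higher and 4 of the 8 lower members, among which Adam19 and Mmp23 gave more than 1 window each. The higher members Adam28, Adam5, Adam9, Adamts5 and Adamts10 had no window. The lower members Adamts6, Adamts8, Adamts15 and Mmp19 had none either. Searched on both strands were the GC box (GGGCGG), the AP-1 site (TGANTCA), the TATA box (TATAAA), the TEAD site (GGAATG) and a half-site of the X-box of ciliary genes (GTTGCC), none of which contains another. A GC box was found in 10 of 12 windows of members that rose (83.3%), in 2 of 6 windows of members that fell (33.3%) and in 10 of 38 windows of members not called (26.3%). The share was 32.7% over all 32851 windows, 51.9% over windows of all genes that were higher in Axin2+ arrays and 58.6% over windows of genes above the median gene. The following windows are printed from 5′ to 3′, and capitals mark the GC boxes.
Mmp11, chr10:75932503-75932752, minus strand: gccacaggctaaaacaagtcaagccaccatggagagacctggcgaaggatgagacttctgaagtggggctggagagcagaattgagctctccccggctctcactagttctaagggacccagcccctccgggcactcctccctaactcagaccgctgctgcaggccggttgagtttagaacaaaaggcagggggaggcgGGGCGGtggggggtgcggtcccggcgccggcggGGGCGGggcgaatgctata
Mmp14, chr14:54431348-54431597, plus strand: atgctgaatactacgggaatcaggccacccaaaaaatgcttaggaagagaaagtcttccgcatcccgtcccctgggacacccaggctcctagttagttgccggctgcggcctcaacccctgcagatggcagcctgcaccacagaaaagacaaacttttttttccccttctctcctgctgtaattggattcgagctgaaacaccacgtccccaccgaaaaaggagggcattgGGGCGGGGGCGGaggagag
Timp2, chr11:118355412-118355661, minus strand: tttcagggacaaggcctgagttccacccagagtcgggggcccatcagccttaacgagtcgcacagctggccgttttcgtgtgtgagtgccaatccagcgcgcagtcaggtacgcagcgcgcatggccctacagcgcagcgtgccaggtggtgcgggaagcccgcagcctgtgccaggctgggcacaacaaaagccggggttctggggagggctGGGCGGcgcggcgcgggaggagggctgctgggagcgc
Adamtsl3, chr7:82335444-82335693, plus strand: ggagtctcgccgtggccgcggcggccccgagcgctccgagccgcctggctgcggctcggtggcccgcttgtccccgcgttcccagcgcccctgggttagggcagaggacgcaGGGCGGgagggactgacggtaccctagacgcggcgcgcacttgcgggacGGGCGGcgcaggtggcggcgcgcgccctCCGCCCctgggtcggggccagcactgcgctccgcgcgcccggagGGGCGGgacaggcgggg

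No window of a rising member held a TATA box, an AP-1 site or a TEAD site, while TATA boxes were in 13 of 38 windows (34.2%) and AP-1 sites in 11 of 38 (28.9%) of members not called. The shares over all windows were 12.4% for the TATA box, 6.75% for the AP-1 site and 12.6% for the TEAD site. Over windows of genes above the median gene they were 6.37%, 4.23% and 10.7%. Over windows of all genes higher in Axin2+ arrays they were 7.21%, 5.32% and 12.6%. At such shares, an absence from 12 windows does not set the rising members apart. The X-box half-site was in 1 of 12 windows of rising members, against 10.4% of all windows. TATA boxes and AP-1 sites were common in the run of 10 MMP genes on chromosome 9, where 7 of 12 windows held a TATA box, 8 an AP-1 site and 7 both, against 1.21% of all windows that held both. The median GC content was 40.2% there and 65.0% in windows of rising members. These are letter matches and show no binding. Mmp13 and Mmp3 are shown as examples of that run, with capitals for the AP-1 site and the TATA box.
Mmp13, chr9:7272264-7272513, plus strand: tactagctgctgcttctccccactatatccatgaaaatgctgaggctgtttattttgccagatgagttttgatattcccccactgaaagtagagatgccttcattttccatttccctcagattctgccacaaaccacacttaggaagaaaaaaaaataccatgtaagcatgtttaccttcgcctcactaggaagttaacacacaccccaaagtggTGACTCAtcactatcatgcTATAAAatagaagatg
Mmp3, chr9:7445572-7445821, plus strand: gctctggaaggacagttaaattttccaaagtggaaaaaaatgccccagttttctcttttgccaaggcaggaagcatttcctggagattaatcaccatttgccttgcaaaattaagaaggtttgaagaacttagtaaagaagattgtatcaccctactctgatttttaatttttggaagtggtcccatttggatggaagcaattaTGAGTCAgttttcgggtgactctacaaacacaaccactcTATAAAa

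**Figure D2:**
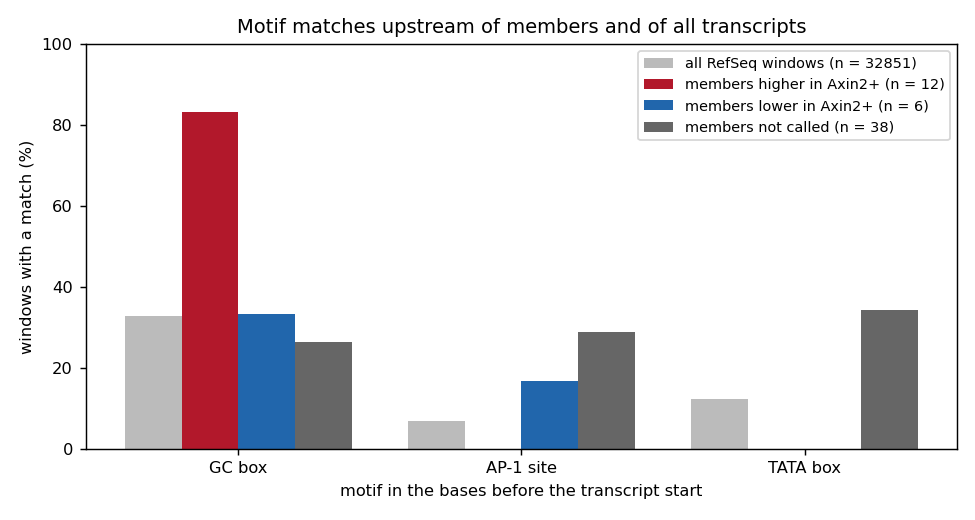
Share of upstream windows, in percent, with at least 1 match on either strand to the GC box, the AP-1 site or the TATA box, for all RefSeq windows and for windows of members higher, lower or not called in Axin2+ arrays. GC boxes are in 83.3% of the 12 windows of rising members, which come from 11 genes, and AP-1 sites and TATA boxes in none of those windows. Windows of genes above the median gene, not drawn, hold them in 58.6% (GC box), 4.23% (AP-1 site) and 6.37% (TATA box).

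Among the MMPs, 3 of 22 rose and 1 fell, and the risers were Mmp11, Mmp23 and Mmp14. In either direction 18.2% of MMPs were called, close to the 17.6% of all genes. Mmp11 encodes stromelysin-3, an MMP that is activated inside the cell by furin. Its log2 values were 7.40, 7.00, 7.06, 7.28 and 7.46 in SP-C+ replicates 1 to 5 and 9.19, 9.01, 9.47, 9.16 and 9.29 in Axin2+ replicates 1 to 5. Every Axin2+ array was thus higher than every SP-C+ array, by well over the spread within either group. The difference was 1.98 ± 0.11 (SE), or 3.95-fold, with an adjusted p of 5.99e-08 in limma. A further Mmp11 probe set, tested among all probe sets, gave 1.15 ± 0.14 (adjusted p = 2.40e-04 in limma). The probe sets thus differed in size and not in direction.

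Mmp23 encodes a small membrane-bound MMP without the hemopexin domain of its relatives. It measured 7.75, 6.91, 7.08, 7.22 and 7.25 in SP-C+ replicates 1 to 5 and 8.92, 8.74, 9.34, 8.87 and 8.84 in Axin2+ arrays. SP-C+ replicate 1 was the highest of its group, yet lay far below all Axin2+ arrays. The difference was 1.70 ± 0.15, or 3.25-fold (adjusted p = 4.40e-06 in limma).

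Mmp14 encodes a membrane-type collagenase that also activates pro-MMP2 in a complex with TIMP2. Its values were 9.46, 9.53, 9.31, 9.76 and 9.29 in SP-C+ arrays and 10.36, 10.16, 10.75, 10.53 and 10.67 in Axin2+ arrays. The groups did not overlap, and the difference of 1.02 ± 0.13, or 2.03-fold, passed the threshold (adjusted p = 7.79e-05 in limma). The other membrane-type genes, Mmp16, Mmp17, Mmp24 and Mmp25, were not called, with differences between -0.12 and 0.09. Mmp19, a secreted MMP, fell by 0.52 (SE 0.10, adjusted p = 0.00286 in limma) from 5.97 ± 0.19 to 5.45 ± 0.13 (SD, n = 5).

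**Figure D3:**
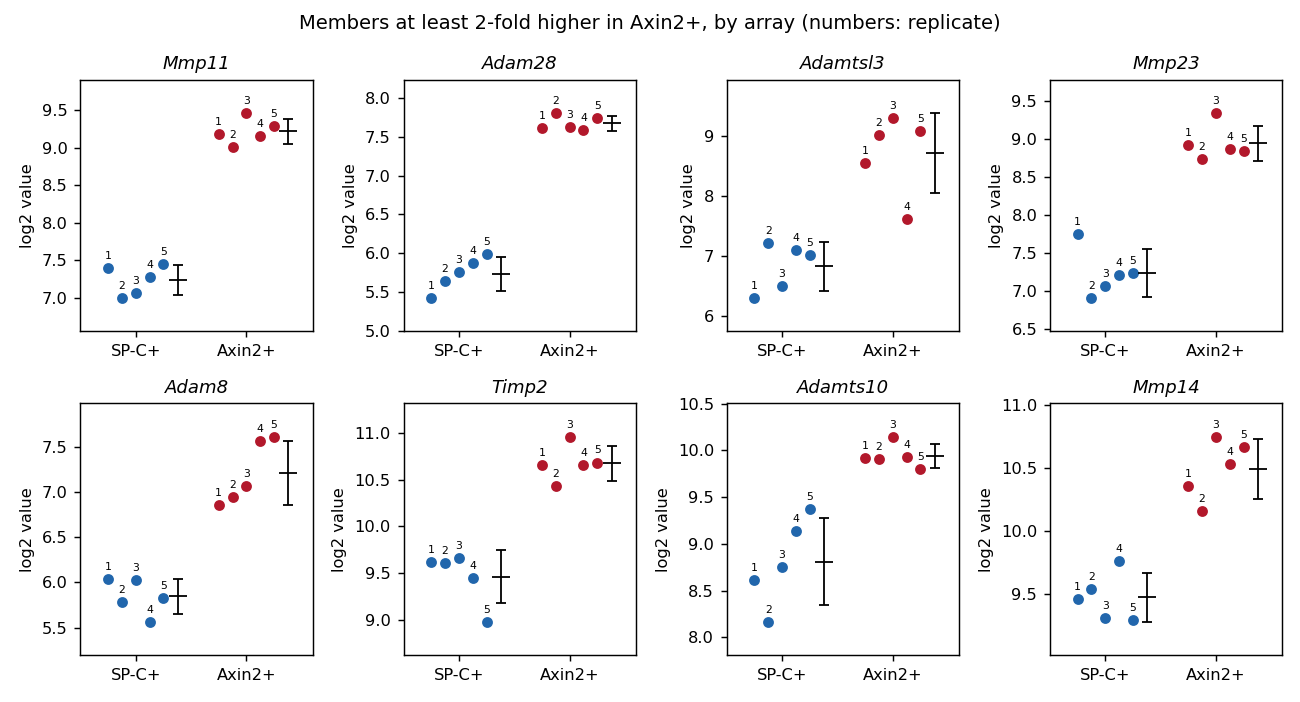
Log2 values by array of the 8 members at least 2-fold higher in Axin2+ arrays, with replicate numbers beside the points and the mean ± SD (n = 5) beside each group. In all 8 panels the lowest Axin2+ array lies above the highest SP-C+ array, with the narrowest gap in Mmp14, between 9.76 and 10.16.

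The remaining MMPs were not called. These were the collagenases Mmp1a, Mmp1b, Mmp8 and Mmp13, the gelatinases Mmp2 and Mmp9, the stromelysins Mmp3 and Mmp10, matrilysin Mmp7, the macrophage elastase gene Mmp12, and Mmp20, Mmp21, Mmp27 and Mmp28. In the run of 10 MMP genes on chromosome 9, which in gene order reads Mmp13, Mmp12, Mmp1b, Mmp3, Mmp1a, Mmp10, Mmp8, Mmp27, Mmp20 and Mmp7 with no other protein-coding gene between them, 0 of 10 were called and differences lay between -0.23 (Mmp20) and 0.17 (Mmp3). All 10 had a mean below the median gene, and 7.44% of genes at or below it were called. Mmp1a and Mmp1b are close copies, and their probe sets may share signal. Mmp2, the main gelatinase of connective tissue, was at 8.11 in SP-C+ replicate 1 and between 6.05 and 6.86 in the other SP-C+ arrays, beside 6.53 to 7.10 in Axin2+ arrays. Its difference was -0.06 ± 0.30 with all arrays and 0.27 without SP-C+ replicate 1 (adjusted p = 0.929 and 0.310 in limma). That array had the highest list averages of endothelial, leukocyte, and fibroblast and smooth muscle markers. Mmp8, the neutrophil collagenase, was likewise highest among SP-C+ arrays in that array, at 5.59 against 4.55 to 4.83. S100a8, a neutrophil gene, was at 5.25 there against 3.20 to 3.55. Ly6g, another neutrophil gene, did not stand apart there. It was at 4.65 against 3.65 to 4.48 in the other SP-C+ arrays, and at 4.69 in Axin2+ replicate 1. The part of such cells in these values was not tested.

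Among the inhibitors, Timp2 and Timp3 rose while Timp1 and Timp4 were not called. Timp2 measured 9.61, 9.61, 9.66, 9.45 and 8.98 in SP-C+ arrays and 10.65, 10.43, 10.96, 10.65 and 10.68 in Axin2+ arrays. The lowest Axin2+ value exceeded the highest SP-C+ value, and the difference was 1.21 ± 0.13, or 2.32-fold (adjusted p = 3.36e-05 in limma). Timp3, whose product binds to the matrix and also inhibits ADAM17 and several ADAMTSs, was at 11.95, 11.46, 11.58, 11.29 and 11.33 in SP-C+ and 12.16, 12.18, 12.32, 12.20 and 12.26 in Axin2+ arrays. Its Axin2+ values lay close together, above all SP-C+ arrays, with a difference of 0.70 ± 0.11 (1.62-fold, adjusted p = 9.17e-04 in limma). Timp1, which is induced in injury and inflammation, was at 4.96, 5.15, 5.30, 4.87 and 4.62 in SP-C+ and 4.93, 4.78, 4.70, 4.89 and 5.05 in Axin2+ arrays, with a difference of -0.11 ± 0.12 (adjusted p = 0.607 in limma). Timp4 was at 4.55, 4.81, 4.80, 4.84 and 4.69 in SP-C+ and 5.08, 4.70, 4.79, 4.73 and 4.65 in Axin2+ arrays, with a difference of 0.05 ± 0.09 (adjusted p = 0.760 in limma). For both of these the groups overlapped widely, and both had a mean below the median gene.

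**Figure D4:**
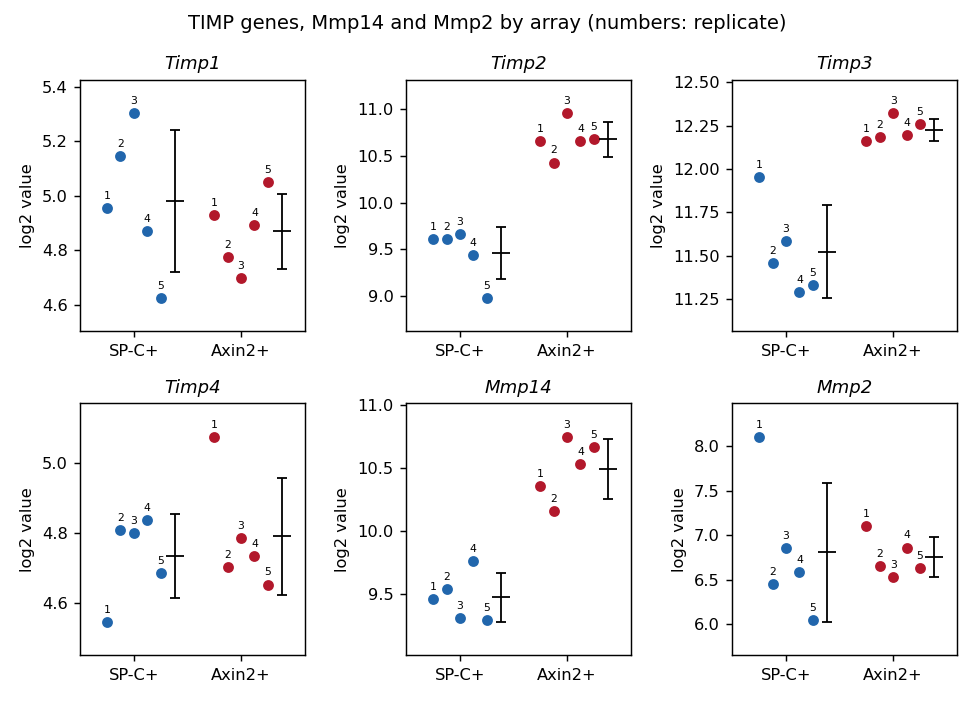
Log2 values by array of the 4 TIMP genes, Mmp14 and Mmp2, with replicate numbers beside the points and the mean ± SD (n = 5) beside each group. Timp2, Timp3 and Mmp14 separate the groups, while Timp1, Timp4 and Mmp2 overlap and Mmp2 has 1 high SP-C+ array at 8.11.

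Of the 9 ADAM sheddases, 4 rose (Adam28, Adam8, Adam9 and Adam10), 1 fell (Adam19) and 4 were not called. That is 55.6% called, against 17.6% of all genes and 27.7% of genes above the median gene, where 7 of the 9 lay. Adam28, known from lymphocytes and the epididymis, measured 5.42, 5.64, 5.76, 5.87 and 5.99 in SP-C+ arrays and 7.61, 7.80, 7.63, 7.59 and 7.74 in Axin2+ arrays. No array came near the other group, and the difference was 1.94 ± 0.10, or 3.82-fold (adjusted p = 4.01e-08 in limma). Adam8, best known as a sheddase of leukocytes, was at 6.03, 5.78, 6.03, 5.57 and 5.83 in SP-C+ and at 6.86, 6.95, 7.07, 7.57 and 7.62 in Axin2+ arrays. Its Axin2+ arrays were uneven, with replicates 4 and 5 highest, but all exceeded the SP-C+ arrays (1.37 ± 0.16, 2.58-fold, adjusted p = 4.36e-05 in limma). Leukocytes also make both genes. The leukocyte list averaged 5.22 to 5.69 in SP-C+ and 5.02 to 5.21 in Axin2+ arrays, and the part of such cells in these values was not tested.

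Adam9, a broadly expressed sheddase, rose from 10.01 ± 0.10 to 10.93 ± 0.13 (SD, n = 5), a difference of 0.92 ± 0.08 (SE), or 1.89-fold (adjusted p = 5.20e-06 in limma). Adam10 cuts Notch receptors, E-cadherin and the receptor RAGE. It ranged from 9.87 to 10.19 in SP-C+ arrays and from 10.46 to 10.79 in Axin2+ arrays, higher by 0.55 ± 0.09 without overlap (adjusted p = 7.47e-04 in limma).

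Adam17, the sheddase of TNF and of several EGF receptor ligands, was at 9.28, 9.49, 9.54, 9.26 and 9.37 in SP-C+ and 9.23, 9.07, 9.12, 9.21 and 9.13 in Axin2+ arrays. All 5 Axin2+ values were below all SP-C+ values, the nearest being 9.23 and 9.26, which by itself fixes the exact permutation p at 0.00794. The difference of -0.24 ± 0.08 did not pass (adjusted p = 0.0534 in limma). It passed in 8 of 20 other settings, with adjusted p-values between 0.00861 and 0.273.

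Adam19, which processes neuregulins and is required in heart development, had the deepest fall of all members. It was at 10.62, 10.81, 10.97, 11.13 and 11.04 in SP-C+ and at 10.25, 10.30, 9.89, 10.17 and 10.04 in Axin2+ arrays, so all Axin2+ arrays were lower. It fell by 0.78 on the log2 scale (SE 0.11, 1.72-fold, adjusted p = 2.72e-04 in limma). A further Adam19 probe set was lower by -1.11 ± 0.08 (adjusted p = 4.41e-06 over all probe sets in limma). Adam12, Adam15 and Adam33 were not called (0.19, 0.22 and -0.15), and the other Adam15 probe set was at -0.15.

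The other ADAMs were those of the nervous system and of the testis. Adam11, Adam22 and Adam23, which have no working protease site and act as receptors or scaffolds in the nervous system, had 0 of 3 called. Of 21 ADAMs of testis and epididymis, many of which serve sperm in reaching and binding the egg, 1 rose, 1 fell and 19 were not called (9.52% called, against 17.6% of all genes and 7.44% of genes at or below the median gene). Their differences ran from -0.65 to 0.58, with a median of -0.04, and 1 of the 21, Adam1a, had a mean above the median gene. The riser was Adam5, from 3.56 ± 0.12 to 4.14 ± 0.21 (SD, n = 5; difference 0.58 ± 0.11 SE, adjusted p = 0.00206 in limma), a change at a very dim probe set. With SP-C+ replicates 4 and 5 alone it lost the call (adjusted p = 0.0582). The member that fell was Adam1b, a fertilin gene, by 0.65 (SE 0.11, adjusted p = 0.00120 in limma), while its neighbour and close copy Adam1a was at -0.19 ± 0.09 and not called, and the probe sets of the pair may share signal. Not called were Adam1a, Adam2, Adam3, Adam4, Adam6a, Adam6b, Adam7, Adam18, Adam20, Adam21, Adam24, Adam25, Adam26a, Adam26b, Adam29, Adam30, Adam32, Adam34l and Adam39.

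Adam5 and Adam9 lie in 1 run of 5 ADAM genes on chromosome 8, with Adam18, Adam3, Adam5, Adam32 and Adam9 in that order and no other protein-coding gene between them. The differences along the run were 0.00, -0.06, 0.58, 0.23 and 0.92. Adam32, which lies between the members that rose, was not called (adjusted p = 0.0713 in limma), though 3 of 18 other settings called it. The other runs on chromosome 8, of 4 ADAM genes around Adam24 and of 3 around Adam26a, had none called.

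The secreted ADAMTS proteases moved both ways, with 3 of 18 higher and 5 lower. In either direction 44.4% were called, against 17.6% of all genes. Adamts10 and Adamts6 are close relatives, both known for binding fibrillin microfibrils, and they moved in opposite directions. Adamts10 was at 8.61, 8.17, 8.75, 9.14 and 9.37 in SP-C+ and at 9.92, 9.91, 10.15, 9.92 and 9.80 in Axin2+ arrays, where values were tight and above all SP-C+ arrays. It rose by 1.13 ± 0.18, or 2.19-fold (adjusted p = 8.28e-04 in limma), and by 0.69 to 1.43 in the other settings, the smallest without SP-C+ replicates 1, 2 and 3. Adamts6 was at 9.65, 9.74, 9.69, 9.33 and 9.67 in SP-C+ and at 9.20, 9.35, 9.02, 9.31 and 9.18 in Axin2+ arrays. It fell by 0.40 (SE 0.10, adjusted p = 0.0104 in limma), and the groups met only at SP-C+ replicate 4. With SP-C+ replicates 4 and 5 alone it was at -0.29 and not called (adjusted p = 0.177).

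Of the 7 proteoglycan-cutting ADAMTSs, 2 rose and 3 fell (71.4% called, against 17.6% of all genes). Adamts5, a main aggrecanase, rose by 0.68 ± 0.10 from 4.87 ± 0.18 to 5.56 ± 0.12 (SD, n = 5; adjusted p = 2.79e-04 in limma), and Adamts20 by 0.33 ± 0.07 (adjusted p = 0.00630). Both had means below the median gene. Adamts9, a versican-cutting protease of many epithelia, was at 10.97, 11.25, 11.32, 10.90 and 11.15 in SP-C+ and at 10.63, 10.66, 10.66, 10.82 and 10.71 in Axin2+ arrays. It fell by 0.42 (SE 0.09, adjusted p = 0.00633 in limma), and the adjusted p was 0.0633 with SP-C+ replicates 4 and 5 alone. Adamts8 and Adamts15, which are neighbours on chromosome 9, fell by 0.39 and 0.30 (adjusted p = 0.0248 and 0.0467 in limma). Adamts8 kept its call in 6 and Adamts15 in 2 of the 10 fits that left out 1 array, with adjusted p-values up to 0.0626 and 0.111 in those fits. Neither passed with the replicate number as a block (0.0724 and 0.102), and the other Adamts8 probe set was at -0.06 ± 0.13.

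Adamts1, which neighbours Adamts5 on chromosome 16, was at 11.08, 10.96, 11.48, 11.86 and 11.89 in SP-C+ arrays and 11.68, 11.61, 11.69, 11.96 and 11.55 in Axin2+ arrays. SP-C+ replicates 4 and 5 were at the level of the Axin2+ arrays and replicates 1, 2 and 3 were lower. The difference was 0.24 ± 0.17 (adjusted p = 0.398 in limma). It was 0.52 without SP-C+ replicates 4 and 5, where it passed (adjusted p = 0.0183), and -0.18 without replicates 1, 2 and 3 (adjusted p = 0.393). Adamts4 was not called.

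Adamts3, an enzyme that trims procollagens and activates the lymphatic growth factor VEGF-C, fell by 0.57 (SE 0.12) from 6.32 ± 0.26 to 5.75 ± 0.12 (SD, n = 5; adjusted p = 0.00519 in limma). Leaving out the first 3 SP-C+ arrays ended the call (adjusted p = 0.0900). Adamts14, with the same kind of activity, was not called (-0.17 ± 0.09, with -0.17 at its other probe set). Adamts7, Adamts12, Adamts13, Adamts16, Adamts17, Adamts18 and Adamts19 were not called, with differences from -0.13 to 0.09.

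The ADAMTS-like genes, whose proteins have no protease domain, had 3 of 5 higher and 0 lower. That is 60% called, against 17.6% of all genes and 27.7% of genes above the median gene, where all 5 lay. Adamtsl3 was at 6.31, 7.22, 6.50, 7.10 and 7.03 in SP-C+ and 8.55, 9.01, 9.29, 7.63 and 9.08 in Axin2+ arrays. Axin2+ replicate 4 was well below its group but still above all SP-C+ arrays, and the difference was 1.88 ± 0.28, or 3.68-fold (adjusted p = 4.80e-04 in limma). Adamtsl5 rose by 0.92 ± 0.11 (adjusted p = 9.34e-05) and Adamtsl4, a fibrillin-binding protein, by 0.67 ± 0.11 (adjusted p = 9.26e-04), both in limma and without overlap of the groups. Adamtsl1 and Adamtsl2 were at 0.02 and 0.00 and were not called.

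**Figure D5:**
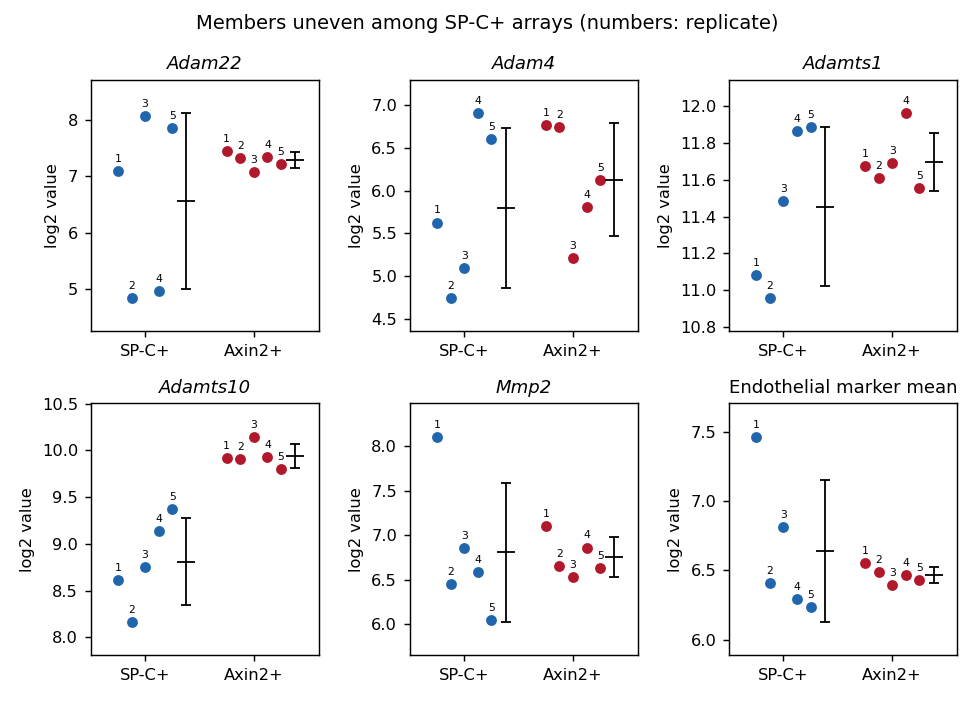
Log2 values by array of Adam22, Adam4, Adamts1, Adamts10 and Mmp2, and the mean over 8 endothelial marker genes, with replicate numbers beside the points and the mean ± SD (n = 5) beside each group. SP-C+ arrays spread far more than Axin2+ arrays for Adam22 (4.83 to 8.07 against 7.08 to 7.46), and SP-C+ replicate 1 is highest for Mmp2 and for the endothelial markers.

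Some members varied more within a group than between groups. Adam22 was at 7.09, 4.83, 8.07, 4.95 and 7.87 in SP-C+ arrays but at 7.46, 7.33, 7.08, 7.34 and 7.23 in Axin2+ arrays. SP-C+ replicates 2 and 4 thus lay far below the other 8 arrays. The SD was 1.57 in SP-C+ and 0.14 in Axin2+ arrays, and the difference of 0.72 ± 0.57 was not called (adjusted p = 0.448 in limma). Adam4, a testis ADAM, was at 5.63, 4.75, 5.09, 6.91 and 6.60 in SP-C+ and at 6.77, 6.74, 5.21, 5.80 and 6.13 in Axin2+ arrays, with both groups spread over the same range. Its SP-C+ arrays did not order as those of Adam22, since replicate 4 was highest for Adam4 and among the lowest for Adam22.

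Genes that activate, carry, inhibit or are cut by these enzymes were taken from a list of 66 names, of which 62 were measured. Of these 11 rose and 6 fell (17.7% and 9.68%), against 8.61% and 8.95% of all genes. Among carriers of ADAM10, the tetraspanin genes Tspan5 and Tspan15 rose by 1.59 ± 0.13 and 1.34 ± 0.11 (adjusted p = 1.90e-06 and 1.83e-06 in limma), Tspan17 fell by 0.42 (SE 0.08), and Tspan10, Tspan14 and Tspan33 were not called. Among carriers of ADAM17, Rhbdf2 fell by 0.55 (SE 0.09, adjusted p = 0.00115) and Rhbdf1 and Frmd8 were not called. Among convertases that cut off inhibitory pro-domains, Furin fell by 0.45 (SE 0.08). Pcsk5 and Pcsk6 rose by 0.77 ± 0.14 and 0.61 ± 0.19 (adjusted p = 0.00221 and 0.0472 in limma). For Pcsk6 the groups overlapped, with SP-C+ replicate 5 at 8.65 and Axin2+ arrays at 8.31 to 8.88.

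Of 7 further genes listed as inhibitors or their regulators 1 rose, Spock2 (4.54 ± 0.11), a testican known for lifting the block of other testicans on membrane-type MMPs and so not itself an inhibitor of them. Reck, a membrane-anchored MMP inhibitor, was at 0.26 ± 0.10 (adjusted p = 0.0800 in limma). No plasminogen system gene was called (0 of 4). Of the astacins and their enhancers, Pcolce, which speeds procollagen processing, rose by 2.08 ± 0.14, while Bmp1, the procollagen C-proteinase itself, fell by 0.49 (SE 0.10). Adamdec1, an ADAM relative outside the symbol rule, rose by 1.01 ± 0.08. Of 16 shed substrates 3 rose and 2 fell: Nrg1, the neuregulin gene, rose by 2.60 ± 0.31, Ager, which encodes RAGE and is also a type 1 cell marker, by 0.71 ± 0.08 and Cx3cl1 by 0.51 ± 0.14, and Epgn and Notch1 fell by 0.81 and 0.39. Of 9 matrix substrates, Fbn2, the fibrillin-2 gene, rose by 1.21 ± 0.31 (adjusted p = 0.0175 in limma) and 8 were not called. Fbn2 was uneven among SP-C+ arrays, at 7.66, 8.04, 8.09, 9.14 and 9.68 in replicates 1 to 5. Replicate 5 thus lay within the Axin2+ range of 9.47 to 9.84.

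Brighter probe sets were called more often among the members, as among all genes. Of 25 members with a mean above the median gene 17 were called (68.0%), against 27.7% of all such genes, and 13 were higher and 4 lower, against 12.5% and 15.2%. Of the 57 dimmer members 7 were called (12.3%), against 7.44% of all such genes. Probe sets differ in brightness for the same amount of RNA, so this split is a rough guide to signal only. The mean takes in both groups, so a rise or fall in Axin2+ arrays can itself move a member across the split. Adam28 (5.74 in SP-C+ and 7.67 in Axin2+ arrays) and Adam8 (5.85 and 7.21) lay at percentiles 54.2 and 52.1, and Adam1b (6.55 and 5.89) at 48.1. Counts of higher and lower members on each side are thus partly set by the split.

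Calls of lower members were lost in more settings than calls of higher members. In 20 other settings, all 24 called members kept their direction wherever they were measured, and 15 of the 16 higher but 2 of the 8 lower members (Adam19 and Adam1b) passed in every one. When SP-C+ replicates 4 and 5 stood alone for their group, 3 members were lower, and Adamts3, Adamts6, Adamts9, Adamts15 and Mmp19 lost their calls (for Mmp19 adjusted p = 0.0763).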

How the data were processed

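RNA of 10 samples was measured on Affymetrix expression arrays from 100 ng of total RNA each, per the labels' protocols. The authors deposited log2 values for 41345 probe sets, already normalized between arrays, and oligo, RMA and limma are named, without a version or role, per the submitters' processing notes. That the scale is log2 was read off its range. Dim genes change less on it than in RNA, and precision is limited by the number of arrays. The platform annotation, which can be old, gave 23521 probe sets 1 gene symbol, 1814 several and 16010 none, and probe sets with several were left unnamed. A gene's brightest probe set by mean stood for it. Differences are Axin2+ minus SP-C+ without covariates, tested two-sided by lmFit and eBayes (limma 3.58.1, R 4.3.3), with calls where p, adjusted by Benjamini-Hochberg over all 22180 genes, was under 0.05. Errors are moderated standard errors unless SD is given. Array batches were not examined, as scan dates were not used here. Both groups carry replicate numbers 1 to 5, but same-numbered arrays did not deviate together (correlations of -0.23 to 0.01), so the fit has no block. The fit was also tested on simulated data of 22180 genes in 2 groups of 5, with 50 genes changed at each of 4 sizes. It recovered 58% of genes changed by 0.5 and 100% of those changed by 1 on the log2 scale. For changes of 2 and 3 it recovered 98% and 100%. Of its calls 8.72% were false, more than the threshold of 0.05 aims for. Far fewer genes were changed there than the 3894 called in the real data, so these rates may differ here. Members, classes, companion genes, markers and settings were chosen with earlier results of these data known. Array values are given for the Timp genes, for called members with a difference of at least 1, and for some others chosen after their values were seen. Other settings were the replicate block, median centring, quantile normalization, array weights, robust variances with a trend on intensity, a gene's mean over its probe sets, dim-gene filters at percentile 25 or 50, fewer arrays, and a threshold of 0.01.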

Additional observations from a re-analysis of the deposited data

Results flagged for a closer look

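Among 34 members examined for an array that stood apart in its group of 5, 3 of 68 groups held one. The 34 were the 24 called members and others picked by hand, Mmp8 among them. Chance flags about 1 in 20 unselected groups, so that rate is no yardstick for this picked set. Mmp8 was at 5.59 in SP-C+ replicate 1, against 4.55 to 4.83 in the other SP-C+ arrays. Adamts6 was at 9.33 in SP-C+ replicate 4, against 9.65 to 9.74. Adam5 was at 4.50 in Axin2+ replicate 5, against 3.97 to 4.12.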

How the results depend on the processing

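The number of higher members was 16 or 17 in the fits that left out 1 array, 16 with the replicate number as a block and 13 to 17 over all other settings. The number of lower members was 6 to 8 without 1 array, 6 with the block, 3 without SP-C+ replicates 1, 2 and 3, 5 with the filter at the 50th percentile, 5 at a threshold of 0.01 and 15 with median centring. Companion genes that were lower numbered 13 with median centring against 6. The median difference of the members was 0.67 with the filter at the 50th percentile. That filter keeps only 25 members, chosen by a mean that takes in the Axin2+ arrays, so it partly sets this value. With median centring the members' median was -0.0914, and the median of all genes moved from -0.04 to -0.14. The members' median lay between -0.03 and 0.01 without 1 array. Of the 24 called members 17 passed in every other setting in which they were measured. For the others, the cause of a lost call was not tested. Fits that left out arrays changed both the number of arrays and the differences, and these were not separated. Signal over background limits the dim members, for which only a change of probe set brightness could be given.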
